A study of Mus musculus with 6 samples.

Results

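The insulin-like growth factor (IGF) genes Igf1, Igf2, Igf1r, Igf2r, Igfbp2, Igfbp3, Igfbp4, Igfbp5, Igfbp6 and Igfbp7 were followed in testes of young mice, and they were taken as every array probe whose platform gene symbol is one of these 10. The rule found 24 of the 45281 probes, for 10 of 19057 genes named on the array. The study compared whole testes of FVB mice labelled Foxo1 null with whole testes of FVB mice labelled wild type, all at postnatal day 4 and with no treatment named. Total RNA of 3 Foxo1 null and 3 wild-type samples was hybridised to Illumina bead arrays on 1 slide. The labels name no allele, promoter or Cre driver behind the null genotype, and they do not say whether a sample is 1 animal or a pool, so the p-values below measure the spread between these samples, which may in part be technical.

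IGF1 and IGF2 are secreted peptides that act through the receptor tyrosine kinase IGF1R, which signals to PI3K and AKT, the pathway that moves FOXO proteins out of the nucleus. IGF2R binds IGF2 and carries it to lysosomes, and the binding proteins hold the ligands in tissue fluid and either restrain or prolong their action. In the testis, signalling through the insulin and IGF receptors is known for its part in Sertoli cell proliferation and testis growth.

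The arrays detected 44.4% to 47.8% of their probes (detection p-value under 0.05), and read each probe by 43 beads at the median. The median scanner signal was 119.1 to 141.1 on null arrays and 116.2 to 132 on wild-type arrays. Foxo1 itself was read by probe ILMN_2656498, with signals of 161.1 to 231.8 on null arrays and 339.4 to 379.1 on wild-type arrays, and by probe ILMN_2509340, with 467.1 to 620.8 on null arrays and 132.6 to 136.5 on wild-type arrays. The probes thus separated the groups in opposite directions, and where they lie within Foxo1 was not analysed here. ILMN_2509340 was detected on 3 null and 2 wild-type arrays, so its wild-type signals were near the detection limit. Of cell type markers, those of germ cells, 9 tested of 10, had lower values in null testes, and their mean log2 value relative to the wild-type mean was -1.18 to -1.89 on null arrays and -0.26 to 0.38 on wild-type arrays. Sertoli cell markers, 8 tested of 10, had means of -0.23 to 0.1 on null arrays and -0.12 to 0.16 on wild-type arrays. Mean values of Leydig cell markers were -0.58 to -0.15 on null arrays and -0.39 to 0.28 on wild-type arrays, those of interstitial fibroblast markers were 0.13 to 0.49 on null arrays and -0.14 to 0.23 on wild-type arrays, and those of endothelial markers were 0.03 to 0.31 on null arrays and -0.03 to 0.03 on wild-type arrays. In whole tissue, fewer cells of a type and less RNA per cell cannot be told apart.

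Igfbp2 was the IGF gene with the largest difference between the genotypes: the group means of its probes were 3.53-fold and 3.50-fold higher in Foxo1 null testes. Single null arrays read 2.42, 5.77 and 3.14 times the wild-type mean at ILMN_2930897 and 2.41, 6.90 and 2.58 times it at ILMN_1236788. The other tested IGF probes, of both ligands, both receptors and the remaining 5 binding proteins, differed by -0.30 to 0.27 on the log2 scale. Of the 24 probes, 19 were detected on all 6 arrays and tested; the 5 not tested were detected on no array. Among the 19, 0 passed an adjusted p-value of 0.05 by limma with Benjamini-Hochberg adjustment over all 20597 tested probes, of which 0.136% passed in either direction. At an unadjusted p-value under 0.05 there were 2 of 19, both of Igfbp2 and both higher in null, beside 4.03% of all tested probes higher in null. In normalized values, the same 2 were the only tested IGF probes whose groups did not overlap, with the null arrays above, which held for 6.23% of all tested probes. The 2 Igfbp2 probes are annotated to the same gene and are not counted as independent; where they lie in it was not analysed here. The median change of the 19 probes was 0.10, beside 0.01 for all tested probes.

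**Figure D1:**
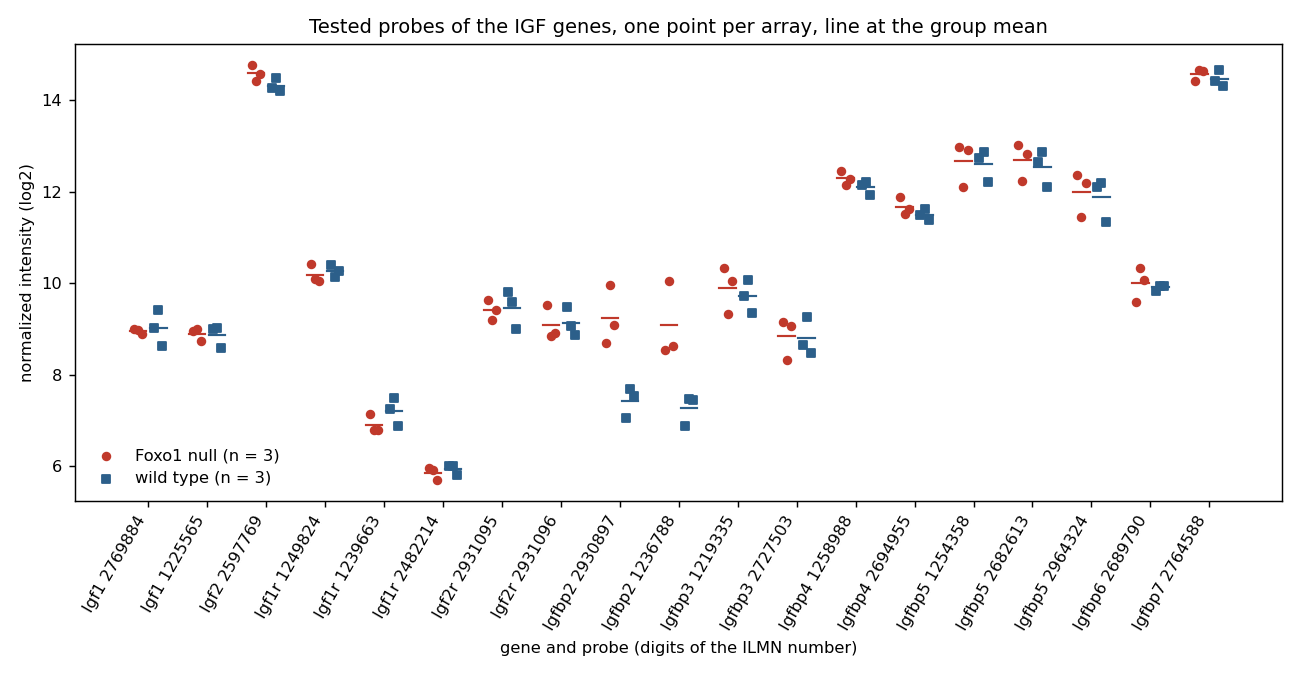
Normalized log2 intensity of the 19 tested IGF probes (y axis) by gene and probe (x axis), with 1 point per array, red circles for the 3 Foxo1 null arrays, blue squares for the 3 wild-type arrays and a line at each group mean. The groups separate at the 2 Igfbp2 probes and overlap at the other 17; heights of different probes cannot be set against each other.

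IGFBP2 is a secreted binding protein with affinity for both ligands, abundant in fetal and perinatal tissues and also found in body fluids. Before normalization, Igfbp2 probe ILMN_2930897 had signals of 543.5, 1062.0 and 741.8 on null arrays 1, 2 and 3, against 211.3, 282.3 and 280.4 on wild-type arrays 1, 2 and 3. Probe ILMN_1236788 had 493.1, 1129.0 and 578.0 on the null arrays and 197.2, 256.6 and 270.5 on the wild-type arrays. On both probes null replicate 2 was the highest of all 6 arrays and wild-type replicate 1 the lowest, and no null array reached down to a wild-type one. The standard error over beads, which covers reading error within an array only, was 25.9 to 54.8 on null arrays and 9.2 to 16.8 on wild-type arrays.

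**Figure D2:**
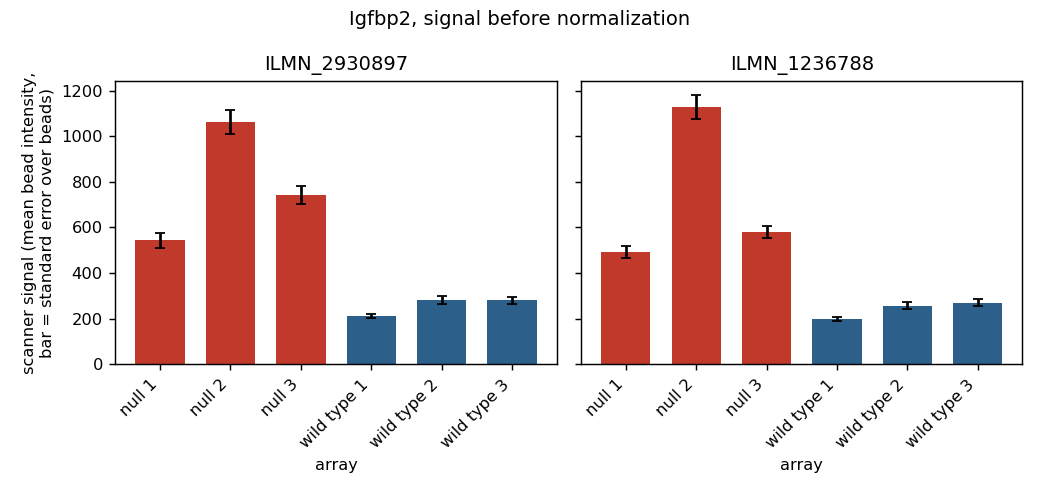
Scanner signal of the 2 Igfbp2 probes (y axis, mean bead intensity before normalization, with bars for the standard error over beads) on each array (x axis), Foxo1 null in red and wild type in blue. The null arrays lie between 493.1 and 1129.0 and the wild-type arrays between 197.2 and 282.3.

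After normalization, probe ILMN_2930897 of Igfbp2 had a log2 intensity of 9.24 ± 0.64 (SD, n = 3) in null and 7.42 ± 0.32 (SD, n = 3) in wild-type testes. The change was 1.82 (SE 0.32), or 3.53-fold with a 95% interval of 2.14 to 5.81, and it missed the threshold (adjusted p = 0.0992, limma). At probe ILMN_1236788 the values were 9.07 ± 0.85 (SD, n = 3) in null and 7.26 ± 0.33 (SD, n = 3) in wild-type testes. There the change was 1.81 (SE 0.39), or 3.50-fold with a 95% interval of 1.90 to 6.45 (adjusted p = 0.176, limma). The probes gave nearly the same fold, and over all tested probes only 19 had a change as high as that of ILMN_2930897 or higher, itself included. Its p-value stood at rank 70 of 20597, and at an adjusted p-value under 0.1 it would pass as higher, as 0.0486% of all tested probes do.

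Whether the brighter probe passed depended on the processing. Under 17 other processing settings its change lay between 1.39 and 2.09, and it passed the threshold under 6 of them (adjusted p from 0.0213 to 0.0478, limma), among them the authors' own normalized values with a change of 1.41. Over the 17 the adjusted p ranged from 0.0213 to 0.362 for ILMN_2930897, and from 0.053 to 0.486 for ILMN_1236788, which passed under 0. The change was smallest among left-out arrays without null replicate 2, at 1.46 (SE 0.23) and 1.32 (SE 0.22) for the 2 probes.

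**Figure D3:**
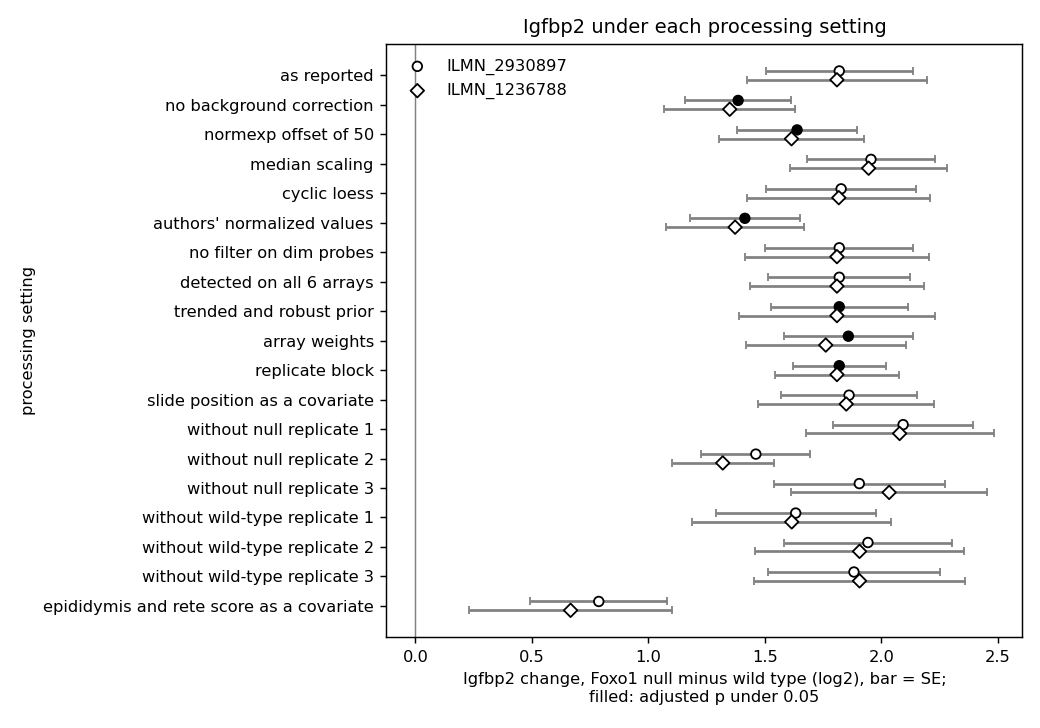
Change of the 2 Igfbp2 probes, Foxo1 null minus wild type on the log2 scale with its SE (x axis), as reported, under 17 other processing settings and with a marker score as a covariate (y axis). Circles stand for ILMN_2930897 and diamonds for ILMN_1236788, and filled points have an adjusted p under 0.05; every change is above 0 and 6 circles are filled.

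The mean of markers listed for epididymis and rete epithelium moved with Igfbp2. The list was chosen with earlier results of these data known, so this likeness is a description and not independent evidence. Of 9 listed markers 6 were tested, and Pax2, Epcam and Emx2 were not. Pax8 was detected on 3 null and 0 wild-type arrays and Krt19 on 3 and 1, so they were tested through the group where they are higher. The mean log2 value of the 6 relative to the wild-type mean was 0.52, 2.13 and 1.58 on null arrays 1, 2 and 3, against -0.44, 0.37 and 0.06 on wild-type arrays 1, 2 and 3. The mean of the Igfbp2 probes on the same scale was 1.27, 2.66 and 1.51 on the null arrays and -0.37, 0.23 and 0.15 on the wild-type arrays. Both measures put the 6 arrays in the same order. Krt8, Cdh16, Lcn2 and Pax8 each had that order, while Krt18 and Krt19 did not. The log2 value of Krt18 was 7.93 on null array 1, below 8.19 on wild-type array 3. Krt19 was highest on null array 3, at 7.40. The share of all tested probes in that order was not counted. Over the 4 markers detected on all arrays (Krt8, Krt18, Cdh16 and Lcn2) the mean was 0.51, 2.56 and 1.64 on the null arrays and -0.46, 0.4 and 0.05 on the wild-type arrays, again in that order. The summed scanner signal of the 6 markers was 2024 to 6130 on null arrays and 1324 to 1752 on wild-type arrays. A fit with the score of the 6 as a covariate was added after seeing the data. There the Igfbp2 changes were 0.79 (SE 0.29) and 0.67 (SE 0.44). Their unadjusted p was 0.0298 and 0.168 and their adjusted p 0.97 and 0.978 (limma). With the score of the 4 the changes were 0.85 (SE 0.25) and 0.69 (SE 0.37). Their unadjusted p was 0.0111 and 0.0981, and both had an adjusted p = 0.948 (limma). In either fit 0 of all tested probes passed the threshold. The score of the 6 correlates with genotype (r = 0.8 over 6 arrays), so such a fit separates the 2 terms poorly. A score that rises with genotype takes up part of any change between genotypes. Nothing is therefore read from the smaller Igfbp2 changes in these fits. Macrophage markers, 6 tested of 7, had means of 0.41 to 0.70 on null arrays and -0.08 to 0.05 on wild-type arrays, and peritubular myoid markers, 5 tested of 6, had means of 0.29 to 1.37 on null arrays and -0.1 to 0.19 on wild-type arrays. The part of macrophages and peritubular myoid cells in the Igfbp2 values was not tested.

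**Figure D4:**
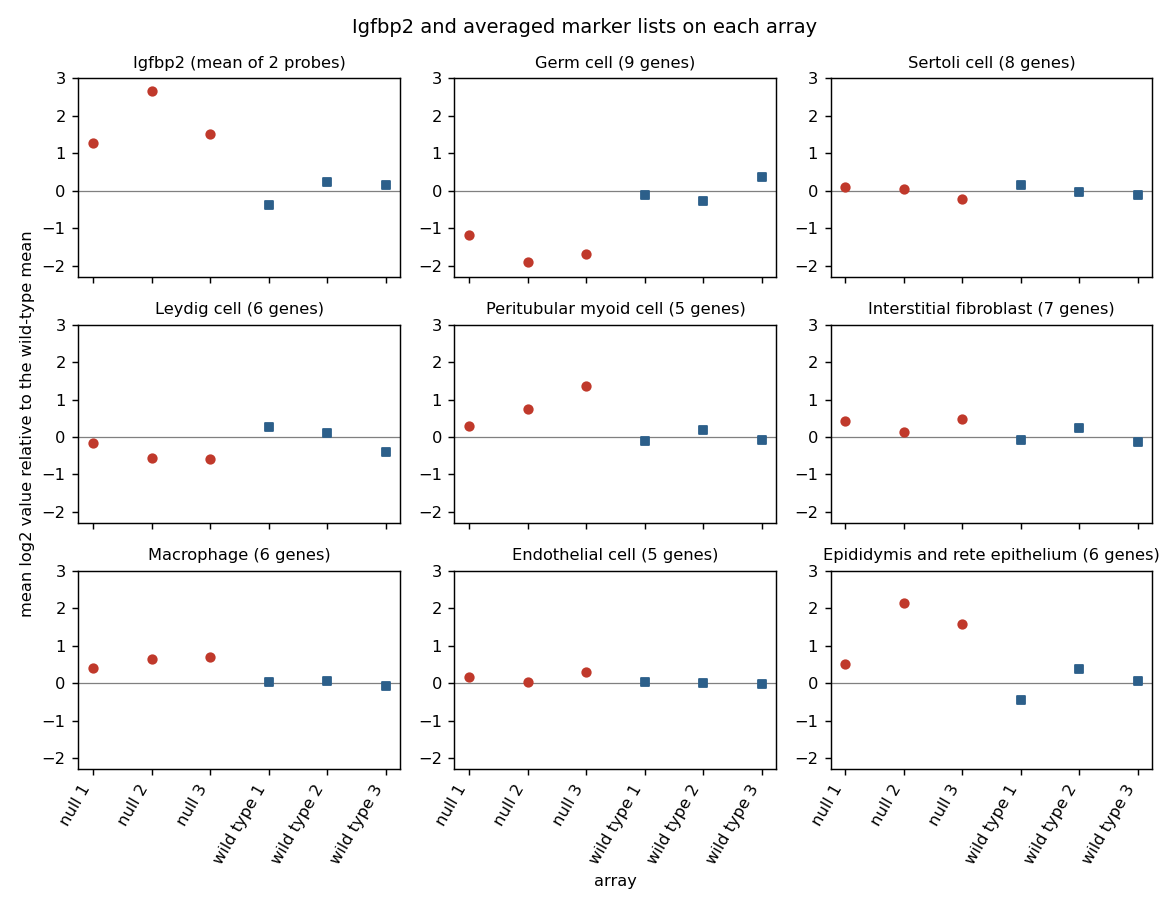
Mean log2 value relative to the wild-type mean (y axis) on each array (x axis) for the 2 Igfbp2 probes and 8 marker lists, Foxo1 null as red circles and wild type as blue squares. Igfbp2 is at 1.27 to 2.66 on null arrays; the epididymis and rete list follows the same order of arrays, while Sertoli cell markers stay between -0.23 and 0.16.

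In the gene table, Igfbp2 on chromosome 1 stands next to Igfbp5 with no other protein-coding gene between them. IGFBP5 binds the ligands and also attaches to extracellular matrix. Its 3 tested probes had changes of 0.06 (SE 0.28), 0.15 (SE 0.26) and 0.12 (SE 0.30), with adjusted p from 0.941 to 0.981 (limma). Probe ILMN_1254358 of Igfbp5 had signals of 8149.4, 4584.5 and 8902.0 on null arrays 1, 2 and 3, and 6449.6, 6822.9 and 4486.6 on wild-type arrays 1, 2 and 3. Null replicate 2, on which Igfbp2 was highest, thus had the lowest Igfbp5 value of the null group, and wild-type replicate 3 the lowest of its group, so the groups overlapped.

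Because the labels name the loss of a transcription factor, the bases before the start sites of this pair are shown, 1 with the higher values and 1 without. Both are the 250 bases upstream of an annotated start, 5′ to 3′, from RefSeq on build GRCm38.p6, at chr1:72824230-72824479 on the plus strand for Igfbp2 and chr1:72874866-72875115 on the minus strand for Igfbp5. Capitals mark GC boxes, GGGCGG on either strand.
Igfbp2: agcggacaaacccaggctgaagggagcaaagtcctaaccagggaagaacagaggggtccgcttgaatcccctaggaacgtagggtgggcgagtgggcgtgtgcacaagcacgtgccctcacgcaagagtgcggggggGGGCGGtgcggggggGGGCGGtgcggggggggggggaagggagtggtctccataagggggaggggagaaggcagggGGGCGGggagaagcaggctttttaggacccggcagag
Igfbp5: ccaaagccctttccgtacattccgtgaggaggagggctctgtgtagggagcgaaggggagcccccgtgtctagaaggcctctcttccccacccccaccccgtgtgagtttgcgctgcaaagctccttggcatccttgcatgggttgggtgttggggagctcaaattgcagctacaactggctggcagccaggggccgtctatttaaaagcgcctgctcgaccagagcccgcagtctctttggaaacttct
This Igfbp2 window holds 3 GC boxes and the Igfbp5 window 0; a further annotated Igfbp2 start has none. Among the 14 upstream windows of the 10 IGF genes, 6, of 5 genes, hold a GC box. Those of Igfbp7 and Igf2r hold 4 and 3. GC boxes occur in 32.7% of all 32851 windows of this length. The forkhead site GTAAACA and the insulin response element core CAAAACA, each searched on both strands, were found in 0 of the 14 upstream windows of the 10 IGF genes. Over all windows they occur in 3.17% and 5.56%. These letters not being in these windows says nothing about binding elsewhere.

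Igf2 encodes the main fetal ligand and is expressed from the paternal allele. Its probe ILMN_2597769 had signals of 27967.9, 23560.5 and 28256.2 on null arrays 1, 2 and 3, and 18579.9, 19878.2 and 17662.4 on wild-type arrays 1, 2 and 3. In these unnormalized signals every null array lay above every wild-type array. Unnormalized signals also carry the brightness of the whole array, and the share of all tested probes with groups apart in them was not counted. Such separation, here or at other IGF probes, is therefore not read as a change. After background correction and quantile normalization the Igf2 groups overlapped. Their log2 values were 14.77, 14.42 and 14.57 on null arrays and 14.27, 14.48 and 14.19 on wild-type arrays, with null replicate 2 below wild-type replicate 2. The Igf2 change was 0.27 (SE 0.16), or 1.21-fold with a 95% interval of 0.94 to 1.56 (adjusted p = 0.699, limma). With median scaling, which moves the median of all tested probes to 0.12, the Igf2 change was 0.43 (adjusted p = 0.418, limma).

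Igf1, the ligand controlled by growth hormone in the liver and also made locally, had changes of -0.07 (SE 0.21) and 0.03 (SE 0.17) at its 2 probes. At probe ILMN_2769884 the Igf1 signals were 643.4, 581.6 and 667.2 on null arrays 1, 2 and 3, and 572.7, 719.6 and 473.1 on wild-type arrays 1, 2 and 3. The wild-type arrays spanned the null ones, and the 95% interval of the fold was 0.69 to 1.32 (adjusted p = 0.973, limma). At the other Igf1 probe, ILMN_1225565, the signals were 630.0, 587.5 and 613.2 on null arrays and 564.5, 570.4 and 464.7 on wild-type arrays. There the null arrays lay above all wild-type arrays before normalization and overlapped with them after it.

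The receptors had negative values throughout, none of them past the test. Igf1r was read by 3 tested probes, at -0.08 (SE 0.16), -0.30 (SE 0.20) and -0.08 (SE 0.15), with adjusted p from 0.738 to 0.954 (limma). At ILMN_1249824, the Igf1r probe with the highest mean, the signals were 1534.0, 1162.3 and 1337.4 on null arrays and 1364.8, 1122.4 and 1246.9 on wild-type arrays, so that the groups interleaved. A further Igf1r probe, ILMN_1232222, was detected on no array. Igf2r, which is expressed from the maternal allele, had changes of -0.05 (SE 0.23) and -0.04 (SE 0.23) at its 2 probes, with signals from 542.1 to 945.1 on null arrays and 536.0 to 920.0 on wild-type arrays. The 95% intervals of the fold were 0.67 to 1.39 and 0.67 to 1.41. With median scaling the sign turned to positive at both Igf2r probes and at 2 of the 3 tested Igf1r probes.

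IGFBP3 is the main carrier of IGFs in adult blood. The Igfbp3 probes changed by 0.19 (SE 0.28) and 0.05 (SE 0.28), with adjusted p of 0.926 and 0.985 (limma). At ILMN_1219335 the Igfbp3 signals were 1460.6, 721.8 and 1343.1 on null arrays, and 873.7, 1088.5 and 710.3 on wild-type arrays; null replicate 2 was again far below its group, and the fold interval of 0.73 to 1.78 reached highest among the 17 probes outside Igfbp2. Igfbp4, which encodes an inhibitory binding protein cut by the protease PAPP-A, had changes of 0.19 (SE 0.16) and 0.17 (SE 0.16), with adjusted p of 0.814 and 0.857 (limma). Its signals at ILMN_1258988 were 5858.0, 4716.4 and 5814.5 on null arrays and 4376.4, 4367.5 and 3750.7 on wild-type arrays, and as with Igf2 the groups were apart before normalization and overlapped after it.

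IGFBP6 prefers IGF2 over IGF1. Igfbp6 was read by 1 probe, with signals of 927.7, 1353.8 and 1371.4 on null arrays and 934.5, 1000.6 and 1023.7 on wild-type arrays. The null arrays included both the lowest and the highest value, and the change was 0.10 (SE 0.20, adjusted p = 0.956, limma). Igfbp7 encodes a relative with low affinity for IGFs, also known from blood vessel walls. Its detected probe, ILMN_2764588, had signals of 22150.2, 27890.4 and 28876.5 on null arrays and 20779.9, 23489.3 and 19333.7 on wild-type arrays, with a change of 0.10 (SE 0.16, adjusted p = 0.927, limma). The other 4 Igfbp7 probes were detected on no array.

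**Figure D5:**
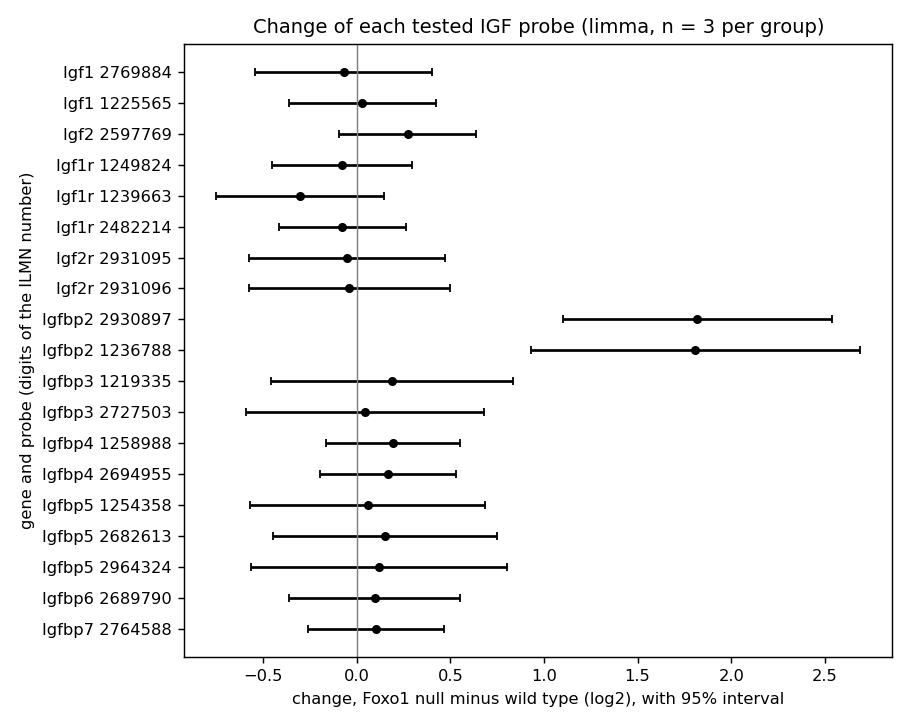
Change of each tested IGF probe, Foxo1 null minus wild type on the log2 scale, with its 95% interval from limma (x axis), by gene and probe (y axis). The intervals of the 2 Igfbp2 probes lie above 0, from 0.93 to 2.69 at the wider one, and those of the other 17 include 0.

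Outside Igfbp2, the 95% intervals of the fold lay between 0.59 and 1.78 at all 17 tested probes, bounds that belong to different probes, and each interval included a fold of 1. Wild-type replicate 3 was the lowest wild-type array at 15 of these 17 probes, and null replicate 2 was the lowest null array at 10 of the 19.

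Of 45 further genes around the IGF system, 40 had a named probe and 30 a tested one. Among their 45 tested probes 0 passed over all genes tested (limma), 0 higher and 1 lower had an unadjusted p under 0.05, and the median change was 0.02. That 1 probe belongs to Pappa, the secreted protease PAPP-A that cuts IGFBP4 and frees bound IGF. Its log2 values were 7.80, 7.82 and 7.80 on null arrays and 8.48, 8.31 and 8.17 on wild-type arrays. The Pappa change was -0.52 (SE 0.14), with an adjusted p = 0.314 (limma). The share of all tested probes lower in null at an unadjusted p under 0.05 was 4.75%. The next smallest p-value was that of probe ILMN_3138922 of Ghr, the growth hormone receptor (0.43, SE 0.19, adjusted p = 0.582, limma). After it came probe ILMN_2710253 of Ccn1, a matricellular protein with an IGF-binding-like domain (0.46, SE 0.23, adjusted p = 0.638, limma). Then came Rln1, a relaxin (-0.47, SE 0.26, adjusted p = 0.685, limma), detected on 1 null and 2 wild-type arrays. The other tested probes were at 0.16 and 0.13 for Ghr, and at 0.10 and 0.28 for Ccn1. Insr, the insulin receptor, was at -0.02 (SE 0.16) at its tested probe. Igfbp1, whose gene lies next to Igfbp3 and which is a known FoxO target in liver, was detected on no array, with signals of 100.8 to 122.8 on null arrays and 102.8 to 117.1 on wild-type arrays.

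Of 11135 named genes outside the IGF group, those whose values over the 6 arrays were most like ILMN_2930897 of Igfbp2 were Camk2n1, an inhibitor of CaM kinase II (Pearson r = 0.996), Tlcd2 (0.992), Epor, the erythropoietin receptor (0.989, detected on 3 null and 0 wild-type arrays), Plscr1, a phospholipid scramblase (0.988), and Lgals3bp, a galectin-binding glycoprotein (0.988). With 6 arrays and this many genes such values arise easily, and they share the split by genotype. The adjusted p of these 5 genes in the comparison of genotypes was 0.342 to 0.569 (limma).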

How the data were processed

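Whole-testis RNA was measured on 6 Illumina arrays; the submitters' processing notes name BeadStudio, and version, settings and genome build are not given in the sources used here. One deposited table gives the scanner output of each probe: mean bead intensity, how many beads were read, the standard error among them, and a detection p-value, per the file headers. A second deposited table holds the authors' normalized intensity on a linear scale, and each column ranks the probes as the same scanner column does; how it was normalized is not stated. Intensities were background-corrected and quantile-normalized with limma 3.58.1 (neqc, offset 16) in R 4.3.3. The offset compresses changes of dim probes. Probes with a detection p-value under 0.05 on at least 3 of 6 arrays were tested (lmFit, eBayes, no covariate), and p-values were adjusted over all 20597 by Benjamini-Hochberg. Probes were named from the platform annotation and kept apart; 34885 have 1 symbol, 18 several and 10378 none. The number of arrays limits the precision.

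Genes named are all probes of the 10 IGF genes, the 4 other IGF system probes with the smallest p-value, Foxo1, and the 5 genes most correlated with the IGF probe of smallest p; Insr, Igfbp1 and the markers came from written lists. Members and lists were chosen with earlier results of these data known. Alternatives changed the background correction, normalization, filter, variance prior, weights, covariates and samples. The test was checked on simulated data. Their noise was drawn independently for each probe and array, so shifts shared by many probes of an array were not covered. No column was left unmapped. Replicate numbers are not said to pair samples: deviations of same-numbered arrays correlated at 0.158, -0.096 and 0.106.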

Additional observations from a re-analysis of the deposited data

How the results depend on the processing

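With 3 arrays a group, whether single probes pass depends on the settings. Over all tested probes, 2 were called higher and 26 lower in null. Probes of Foxo1 itself were among them, ILMN_2509340 higher (adjusted p = 0.00221, limma) and ILMN_2656498 lower (adjusted p = 0.0273, limma). The calls were 9 higher and 53 lower with no background correction, 13 and 74 with a normexp offset of 50, 8 and 45 with the authors' normalized values, 1 and 1 with no filter on dim probes, 1 and 17 with detection required on all 6 arrays, 18 and 85 with a trended and robust prior, and 26 and 83 with array weights. They were 6 and 32 with slide position as a covariate, 2 and 12 with median scaling, 10 and 66 at an adjusted p under 0.1, and, by limma, 0 and 0 with the epididymis and rete score as a covariate (454 higher and 535 lower at an unadjusted p under 0.05), as with the score over its 4 markers detected on all arrays (498 and 533). With the replicate number as a block they were 17 and 51, and ILMN_2930897 of Igfbp2 had an adjusted p = 0.0224 (limma); the numbers are not shown to pair the arrays. Leaving out 1 array gave 1 to 21 higher and 0 to 49 lower, with 0 lower without null replicate 2 (617 higher and 758 lower at an unadjusted p under 0.05). Median scaling also moved the split at an unadjusted p under 0.05, which was 831 higher and 979 lower, to 1582 and 493. Among the IGF probes, 1 instead of 0 was called higher, ILMN_2930897 of Igfbp2, under no background correction, the offset of 50, the authors' values, the trended prior, array weights, the replicate block and the threshold of 0.1; 0 were called lower in any setting. Other IGF system probes had 0 calls in every setting.

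Of 323 values of single IGF probes under 17 other settings, 30 changed sign, all of probes that were not called, and 24 of them on leaving out 1 array. With median scaling the values were 0.057 for Igf1 ILMN_2769884, 0.033 and 0.025 for Igf1r ILMN_1249824 and ILMN_2482214, and 0.077 and 0.083 for Igf2r ILMN_2931095 and ILMN_2931096, and with array weights -0.093 for Igf1 ILMN_1225565. Leaving out 1 array gave -0.27 to 0.13 and -0.11 to 0.11 for these Igf1 probes, -0.139 to 0.005 for Igf1r ILMN_2482214, -0.29 to 0.12 and -0.26 to 0.13 for Igf2r, -0.025 to 0.47 and -0.12 to 0.31 for Igfbp3, -0.14 to 0.34, -0.068 to 0.38 and -0.15 to 0.39 for Igfbp5, and -0.069 to 0.299 for Igfbp6. The Igfbp2 probes, Igf2, both Igfbp4 probes, Igfbp7 ILMN_2764588 and Igf1r ILMN_1239663 kept their sign under all 17. The cause of these changes was not tested.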
